A study of Mus musculus with 60 samples.

Results

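Collagens and laminins, the main structural proteins of the extracellular matrix, were read in mouse mammary tissue with 3 types of Affymetrix array (A, B and C). A member is a probe set, the group of short oligonucleotides that measures a transcript, annotated with exactly 1 gene symbol of the form Col, number, a, number (such as Col1a1) or Lama, Lamb or Lamc and a number. Of 36899 probe sets, 91 met this rule and they stand for 50 genes, with 58 probe sets on array A, 13 on B and 20 on C. They fall into 21 probe sets of 10 fibrillar collagen genes, 35 of 18 basement membrane genes (collagens IV, XV and XVIII and the laminins) and 35 of 22 other collagen genes.

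All 20 animals had lost their ovaries, the vehicle controls included, and each was injected once a day into the abdominal cavity for 4 days. The 5 groups were E+P (17-beta-estrogen at 2 µg together with progesterone at 1 mg, 5 animals), E (that estrogen dose alone, 4 animals), P (that progesterone dose alone, 4 animals), E+P CFP (fat pads free of epithelium from 3 animals given both hormones) and V (100 µl sesame oil, 4 animals). The labels give no strain and no age, and they do not say whether the E+P CFP pads and the E+P glands came from different animals. They were treated as different, which gives the count of 20. If some came from the same animal, those samples would be paired, and the comparisons below do not use such a pairing. Lymph nodes had been taken out, and RNA came from whole tissue, so fewer cells of a type and less RNA per cell cannot be told apart.

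Every collagen molecule is a trimer whose chains wind into a triple helix. Fibrillar collagens assemble into the cable-like fibres of the connective tissue around mammary ducts and between fat cells. Laminins are trimers of an alpha, a beta and a gamma chain, and together with collagen IV they form the sheet-like basement membrane under the ductal epithelium and around fat cells, muscle fibres and vessels. The remaining collagens coat fibrils, anchor epithelium to the tissue below or sit in cell membranes, and estrogen and progesterone are known for driving the growth of the ducts and side branches that all these proteins surround.

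Values below are scaled array signals without a unit, and they can be compared between animals for the same probe set but not between probe sets. A difference is given as the mean log2 signal of one group minus that of another, ± its standard error in the limma model. Its p-value was adjusted by Benjamini-Hochberg over the 23055 probe sets tested, and a call is an adjusted p under 0.05. A probe set was tested when it exceeded its array type's median signal in at least 3 animals, which held for 62 member probe sets of 37 genes, so a member that is dim in most groups was tested only if it was bright in some. Signals under a floor (13.5 on array A, 28.5 on B and 19.8 on C) were set to the floor before the tests. The labels do not say that the samples of a group were prepared or run on separate days, and they give no batch.

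The fat pads fitted their label: the luminal markers Krt8, Krt19, Epcam, Elf5 and Cldn7 were at the floor in all 3 E+P CFP animals. Of the other luminal markers, Cldn4 and Ehf were at the floor in 2 of these animals, Krt18 in 1, and Cldn3 and Cdh1 in 0. Cdh1 averaged 130 in E+P CFP against 204 in E+P. All 10 luminal markers could be tested. Averaged over these markers, the log2 deviation from each marker's mean (their score) was 0.58 to 1.29 in E+P, 0.29 to 0.95 in E, 0.15 to 0.42 in P, -3.40 to -3.24 in E+P CFP and 0.21 to 0.52 in V, so E+P and V did not overlap. Of the 7 basal markers, Krt5 and Krt14 were too dim to be tested in any group, and the score of the 4 tested ones was -0.09 to 0.65 in E+P and -1.40 to -0.42 in E+P CFP. Animals are named by group and replicate number, and 3 of them were singled out. V 4 had a lymphocyte marker score of 1.38 against -1.86 to -1.73 in the other V animals, and E 1 had a skeletal muscle score of 2.27. Lymphocyte scores also spread in E+P (-1.86 to 0.96) and P (-1.85 to 1.10), and were 0.61 to 2.35 in E. The log2 ratio between the 3' and 5' control probe sets of Gapdh is a sign of RNA quality. E+P CFP 1 and V 4 gave its highest values, at 2.08 and 1.77 against 0.30 to 1.46 elsewhere. By group it was 0.30 to 0.75 in E, 0.40 to 1.36 in P, 0.67 to 1.46 in E+P and 0.95 to 1.77 in V, so E and V did not overlap. Results are therefore also given without V 4, E 1 and E+P CFP 1, a setting chosen after these values had been seen.

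With both hormones, Col7a1 and Col16a1 were the only member probe sets that differed from vehicle past the threshold. Col7a1 encodes collagen VII, the chain of the anchoring fibrils that fasten epithelial basement membranes to the stroma, and Col16a1 encodes a fibril-associated collagen found near basement membranes. Both also rose against progesterone alone, by about the same amount as against vehicle. In E+P against V these were 2 higher and 0 lower of 62 tested member probe sets, where 0.464 percent of all tested probe sets passed in either direction. In E+P against P they were again 2 higher and 0 lower, where 0.36 percent of all passed. At an unadjusted p under 0.05, 12 of the 62 were higher and 0 lower in E+P than in V, where 6.03 percent of all tested probe sets were higher and 4.64 percent lower; by class, 2 of 16 fibrillar, 4 of 24 basement membrane and 6 of 22 other probe sets were higher. In E+P against P, 12 were higher and 0 lower at that level, where 6.26 percent of all were higher and 5.2 percent lower.

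Col7a1 had signals of 335, 460.1, 426, 344 and 547 in E+P animals, 278, 148, 219 and 321 in E animals and 181, 194, 125 and 199 in P animals. Its signals were 113, 54.7 and 88.3 in E+P CFP animals and 208, 184, 149 and 254 in V animals. Every E+P gland was above every other animal, every fat pad was below every gland, and the E, P and V glands overlapped one another. The difference was 1.09 ± 0.24 for E+P against V (adjusted p = 0.0453, 95% interval 0.59 to 1.59) and 1.27 ± 0.24 for E+P against P (adjusted p = 0.0202). Against E it was 0.84 ± 0.24 and did not pass the threshold (adjusted p = 0.224), although the groups did not overlap.

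Col16a1 had signals of 454, 875, 651, 474 and 724 in E+P animals, 357, 224, 326 and 445 in E animals and 329, 353, 173 and 301 in P animals. Its signals were 121, 179 and 159 in E+P CFP animals and 274, 289, 267 and 256 in V animals. The E+P glands were again above all others, and the V glands were close together while the P and E glands spread around them. Col16a1 differed by 1.18 ± 0.22 for E+P against V (adjusted p = 0.0157) and by 1.14 ± 0.22 for E+P against P (adjusted p = 0.0228). Against E it differed by 0.91 ± 0.22 without passing the threshold (adjusted p = 0.145, the lowest of any member in that comparison).

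These calls were near the threshold. The Col7a1 call against V was lost when any 1 of 13 animals was left out (adjusted p = 0.0504 to 0.172) and was kept without E 2, E 4, P 3, E+P 4, E+P CFP 1, E+P CFP 2 or V 4, while its difference stayed between 0.96 and 1.22. The Col16a1 call against V was lost without E+P 2, E+P 5 or V 3 (adjusted p = 0.0529 to 0.0685). Against P, both calls were lost without P 3, E+P 2, E+P 3 or E+P 5, with adjusted p-values of 0.0533 to 0.0833 for Col7a1 and 0.0599 to 0.0914 for Col16a1. Without V 4, E 1 and E+P CFP 1 together all 4 calls held, with adjusted p-values of 0.0279 to 0.0474. With no filter on dim probe sets all 4 were lost, with adjusted p-values of 0.116 (Col7a1) and 0.0717 (Col16a1) against V and of 0.0624 (Col7a1) and 0.0717 (Col16a1) against P. The call of Col7a1 against V was also lost with median scaling (adjusted p = 0.0730) and without the intensity trend in limma (adjusted p = 0.0665), and that of Col16a1 against P without the trend (adjusted p = 0.0561) and when only the compared groups were fitted (adjusted p = 0.0913).

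Markers of other cell types also differed between E+P and V. The luminal score was higher in E+P than in V and P without overlap, and 7 of 10 luminal markers were higher than in V at an unadjusted p under 0.05, of which 1 passed the threshold. The endothelial score was -0.38 to 0.06 in E+P against -0.05 to 0.44 in V, and 4 of 8 endothelial markers were lower at the unadjusted level, of which 2 passed. The adipocyte score was -0.52 to 0.03 in E+P against -0.25 to 0.15 in V, with 1 of 7 markers higher and 4 lower at the unadjusted level and 0 past the threshold. Of all tested probe sets, 6.03 percent were higher and 4.64 percent lower at the unadjusted level, and 0.464 percent passed in either direction. The part of these cell types in the rise of Col7a1 and Col16a1 was not tested.

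The start regions of these 2 genes are shown because they carry the calls between intact glands, a choice made after the calls were known. They come from RefSeq's GRCm38.p6 promoter table and cover 300 bases around the annotated start, most of them before it, 5' to 3' on the plus strand, at chr9:108953336-108953635 for Col7a1 and chr4:130047590-130047889 for Col16a1. Capitals mark GGTCA, one arm of the palindrome that the estrogen receptor binds, and GGGCGG, the GC box of the factor Sp1, each on either strand (TGACC and CCGCCC on the other).
Col7a1: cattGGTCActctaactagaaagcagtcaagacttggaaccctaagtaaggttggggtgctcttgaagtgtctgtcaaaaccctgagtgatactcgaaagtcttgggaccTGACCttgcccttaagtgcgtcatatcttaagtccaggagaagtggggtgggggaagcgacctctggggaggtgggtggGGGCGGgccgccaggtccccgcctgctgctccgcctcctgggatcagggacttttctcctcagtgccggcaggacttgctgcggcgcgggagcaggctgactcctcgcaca
Col16a1: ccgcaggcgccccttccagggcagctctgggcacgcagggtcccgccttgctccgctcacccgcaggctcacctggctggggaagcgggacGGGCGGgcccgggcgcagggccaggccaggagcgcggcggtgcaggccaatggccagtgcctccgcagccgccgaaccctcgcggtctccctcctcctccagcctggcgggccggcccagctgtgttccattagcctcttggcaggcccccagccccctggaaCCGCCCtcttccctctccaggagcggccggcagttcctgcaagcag
The Col7a1 window held 2 matches to GGTCA and 1 to GGGCGG, and the Col16a1 window held 0 and 2. Neither held TGTTCT, one arm of the site shared by the progesterone receptor and its relatives, nor the full palindrome, which is GGTCA and TGACC spaced by 3 bases and so contains the first motif. GGTCA was in 11 of the 40 windows that matched 36 member genes, against 40.5 percent of all 32851 windows in the table. GGGCGG was in 25 of 40 member windows against 35.7 percent of all, and TGTTCT in 3 of 40 against 19.0 percent of all. The full palindrome was in 0 of the member windows and in 23 of all windows. A match here is a description of letters and not a binding site.

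**Figure D1:**
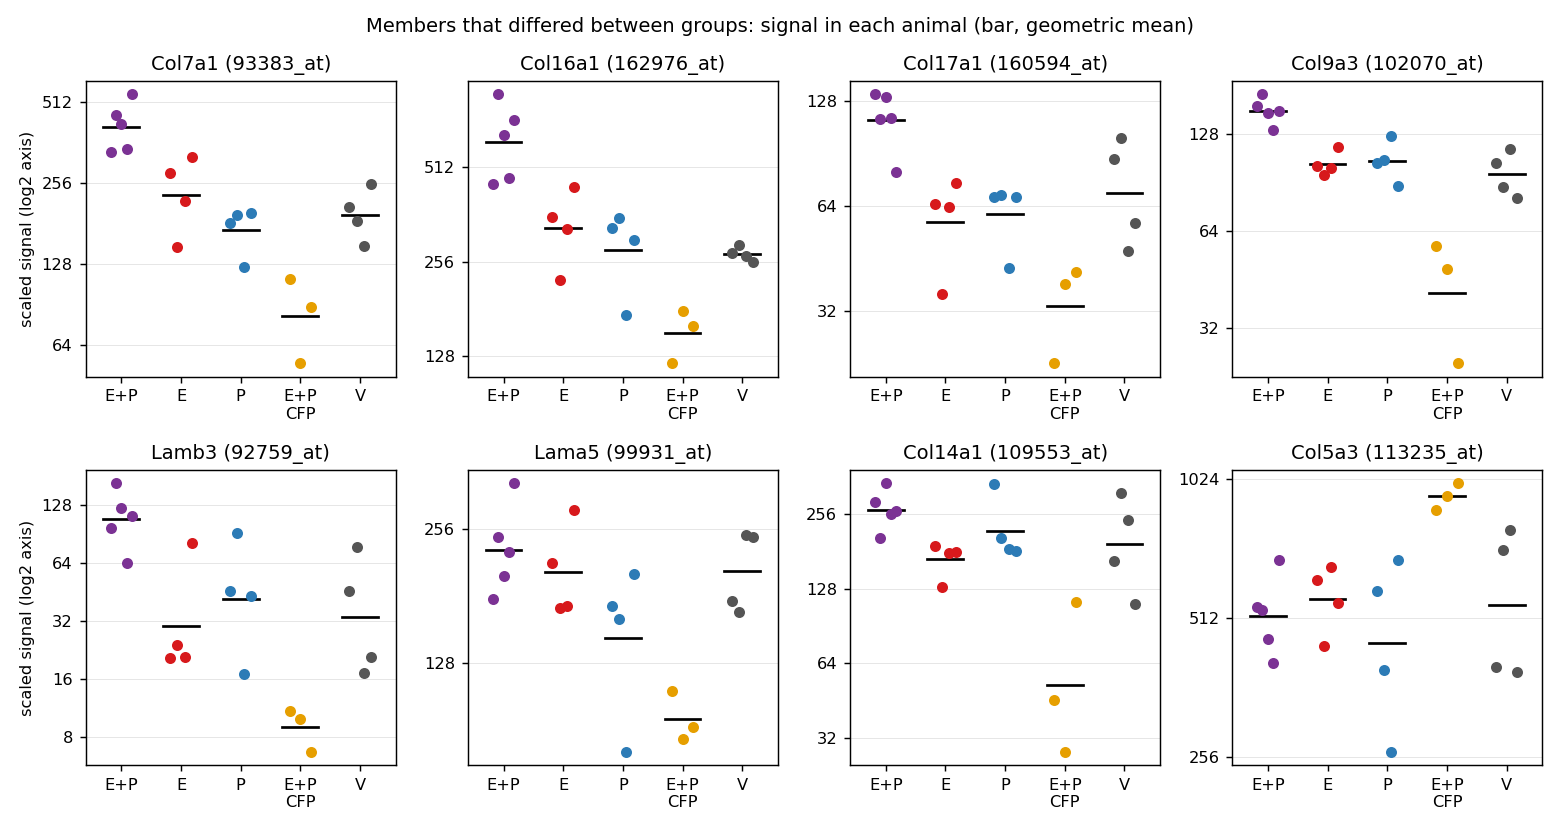
Scaled signal on a log2 axis of 8 member probe sets in each animal of E+P, E, P, E+P CFP and V; points are animals, before the floor is applied, and bars are geometric means. The 5 E+P animals lie above all others for Col7a1 (335 to 547) and Col16a1 (454 to 875), and the 3 E+P CFP animals lie lowest for Lamb3 (6.70 to 10.9) and highest for Col5a3 (877 to 1002).

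Col17a1, Lamb3 and Col9a3 had their highest mean in E+P as well, without passing the threshold against any other intact gland. This was not particular to them. The log2 deviation averaged over all 37 tested member genes had a group mean of 0.25 in E+P and of -0.24 to 0.03 in the other groups. Col17a1, the membrane-spanning collagen of the hemidesmosome, had signals of 133, 114, 132, 114 and 80.0 in E+P, 65.0, 35.9, 63.5 and 74.5 in E, 68.0, 68.8, 42.5 and 67.8 in P, and 87.0, 100.0, 47.7 and 57.2 in V. Col17a1 lay above every E and P gland in all 5 E+P glands and overlapped V. Its difference was 0.69 ± 0.27 against V (adjusted p = 0.343), 0.97 ± 0.27 against E (adjusted p = 0.224) and 0.90 ± 0.27 against P (adjusted p = 0.171). Lamb3, the beta chain of laminin-332, which anchors epithelial cells, had signals of 96.9, 166, 124, 64.2 and 112 in E+P and of 45.8, 77.5, 17.1 and 20.7 in V. These groups overlapped through 1 animal each, and the difference of 1.68 ± 0.51 did not pass (adjusted p = 0.169). Lama3, the alpha chain of the same laminin, was above the median of its array in only 2 animals and was not tested; it read 51.4 to 85.5 in E+P and 44.7 to 59.7 in V.

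Col9a3, a chain of the fibril-associated collagen IX best known from cartilage, had signals of 156, 169, 149, 131 and 151 in E+P against 104, 87.4, 114 and 80.6 in V. The groups did not overlap, yet the difference of 0.65 ± 0.20 did not pass the threshold (adjusted p = 0.166). A second, dimmer Col9a3 probe set, whose probes may bind related transcripts, had 2 of 4 V animals at the floor. This probe set differed by 1.83 ± 0.64, a lower bound of its size (adjusted p = 0.243). Of the other chains of collagen IX, Col9a1 differed by -0.36 (95% interval -0.90 to 0.19) and Col9a2 by -0.03 (95% interval -0.32 to 0.27) between E+P and V.

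Fibrillar collagens, the bulk of the connective tissue fibres, gave no call among 16 tested probe sets of 8 genes in any comparison within the intact gland. In these comparisons 0 to 0.464 percent of all tested probe sets passed, so 0 of 16 is near the share over all. Between E+P and V the median difference over the 16 was 0.25, against 0.01 over all tested probe sets. Col1a1, the alpha 1 chain of collagen I, had signals of 2709, 2001, 4577, 1909.7 and 4797 in E+P against 1899.7, 3203, 4158 and 1922 in V. Both groups held low and high animals over the same range, and the difference was 0.16 with a 95% interval of -0.52 to 0.85. For Col1a2, the other chain of collagen I, the interval was -0.06 to 1.21 around 0.57, which is wide next to the difference itself. Col3a1, which forms the finer fibrils of collagen III, differed by 0.34 (interval -0.21 to 0.89) with signals of 1811 to 4336 in E+P and 1709 to 3486 in V. Other probe sets of these genes did not all agree in sign: a second one of Col1a2 differed by -0.26, and the 3 others of Col5a1 by -0.70, 0.36 and 0.46. The one at -0.70 was dim, at the floor in 8 animals and above its array's median in only 4.

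Collagen V chains help to set fibril diameter. Col5a2 had signals of 1145, 783, 1452, 1016 and 1695 in E+P against 594, 964, 1185 and 499 in V, which overlapped (0.62 ± 0.27, adjusted p = 0.392). Col5a1 differed by 0.01 (interval -0.36 to 0.38), and Col5a3 by -0.08 (interval -0.58 to 0.42). With estrogen alone the same 8 genes ranged from -0.31 to 0.48 against V and with progesterone alone from -0.33 to 0.11, and no interval of Col1a1, Col1a2 or Col3a1 excluded zero.

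**Figure D2:**
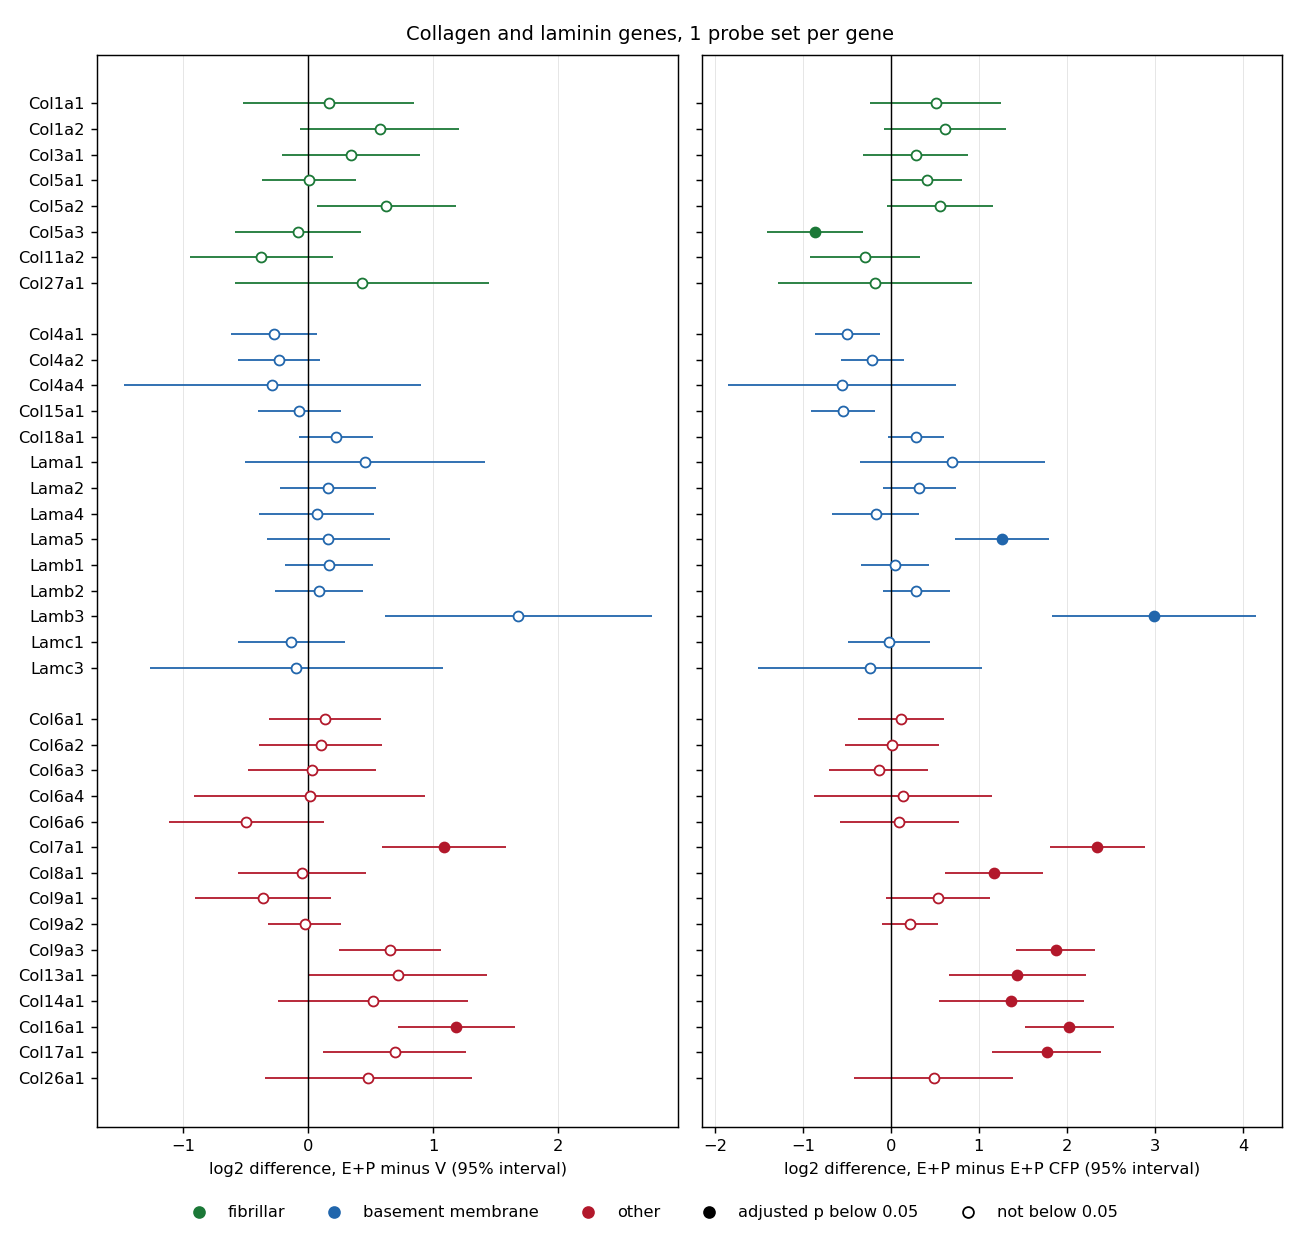
Log2 difference (point) with its 95% interval (line) for the 37 tested member genes, 1 probe set each, in E+P minus V (left) and E+P minus E+P CFP (right), with a different horizontal scale in each panel; filled points passed an adjusted p of 0.05. On the left only Col7a1 (1.09) and Col16a1 (1.18) are filled, while on the right 10 genes are, from Lamb3 (2.99) to Col5a3 (-0.86).

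The basement membrane class gave no call within the intact gland among 24 tested probe sets of 14 genes. There 0 to 0.464 percent of all tested probe sets passed, so 0 of 24 is near the share over all. Col4a1 and Col4a2, the chains of the collagen IV network found in all basement membranes, differed by -0.27 (interval -0.61 to 0.07) and -0.23 (interval -0.56 to 0.10) between E+P and V. Col4a1 read 1044 to 1286 in E+P against 1188 to 1619 in V, which overlapped. Col15a1, a basement membrane collagen of vessels and muscle, read 422 to 497 in E+P against 343 to 598 in V (-0.07, interval -0.40 to 0.26).

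Laminin chains of stroma, muscle and vessels were also without a call within the intact gland, where 0 to 0.464 percent of all tested probe sets passed. Lama2, the alpha chain around muscle fibres, read 163 to 281 in E+P against 193 to 225 in V (0.16, interval -0.22 to 0.54). Lama4, the alpha chain of vessel walls and fat cells, read 334 to 497 in E+P against 246 to 554 in V (0.07, interval -0.39 to 0.52). The intervals of the shared chains Lamb1, Lamb2 and Lamc1 for the same comparison were -0.19 to 0.52, -0.26 to 0.44 and -0.56 to 0.29. The probes read for Lamc1 may also bind related transcripts. Lama5, the main laminin alpha chain under adult epithelia, read 178 to 324 in E+P against 166 to 248 in V (0.16, adjusted p = 0.883). Lamb1 was the member with the lowest p for progesterone alone, at 175 to 260.0 in P against 126 to 176 in V (0.48 ± 0.18, adjusted p = 0.490).

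Col18a1, whose carboxyl end is released as the angiogenesis inhibitor endostatin, gave different pictures with different probe sets, and RefSeq's promoter table lists 2 start windows for it. Of its tested probe sets, called a to d here, a read 396 to 597 in E+P, 379 to 463 in E, 320.2 to 432 in P, 327 to 466.2 in E+P CFP and 363 to 465 in V, all overlapping. Probe set c read 72.5 to 109.7 in E+P, 48.4 to 160.2 in E, 17.3 to 66.8 in P, 103 to 196 in E+P CFP and 17.4 to 88.0 in V. Probe sets b, c and d all averaged lower in P and V than in E+P, E and E+P CFP. For E+P against V, b, c and d differed by 1.23 ± 0.38, 1.25 ± 0.44 and 0.92 ± 0.28, with adjusted p-values of 0.185, 0.263 and 0.167. For E against V, b, c and d differed by 1.03 ± 0.40, 1.37 ± 0.46 and 0.71 ± 0.29, with adjusted p-values of 0.308, 0.237 and 0.332. The array's names for b, c and d mark probes that may also bind other transcripts, and which Col18a1 transcript each reads was not tested.

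**Figure D3:**
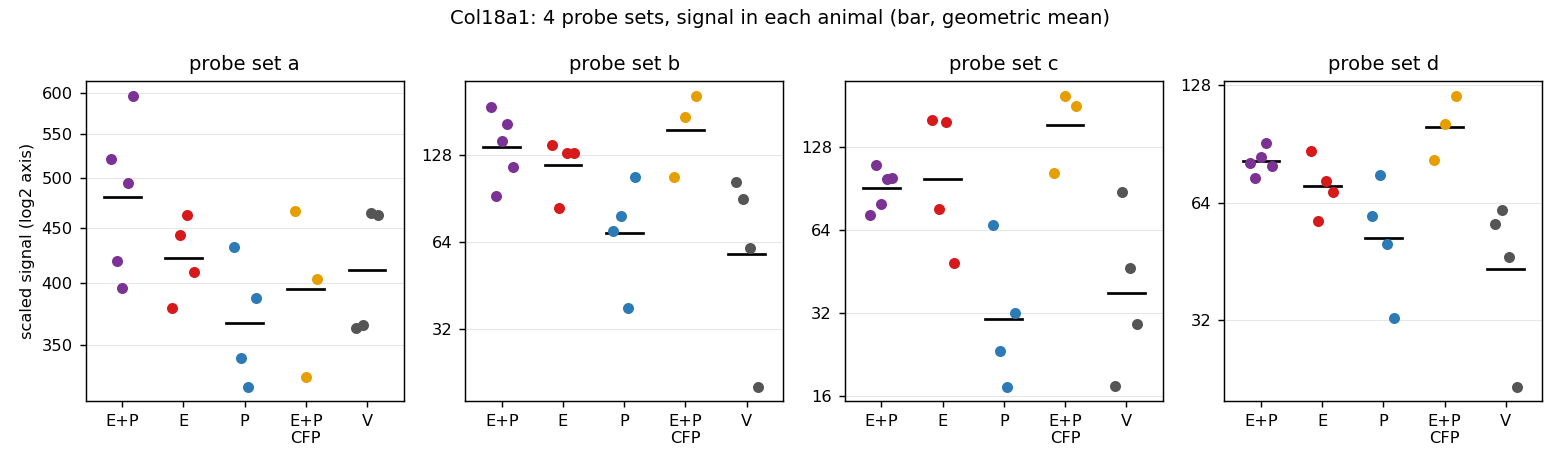
Scaled signal on a log2 axis of the 4 tested Col18a1 probe sets in each animal of E+P, E, P, E+P CFP and V; points are animals and bars geometric means. All groups overlap for probe set a, whereas for c the 3 E+P CFP animals (103 to 196) lie above the 4 V animals (17.4 to 88.0).

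Collagen VI, the beaded filament that links cells to fibrils, gave no call in any comparison, where 0 to 7.9 percent of all tested probe sets passed. Col6a1 read 712 to 1044 in E+P, 682 to 964 in E, 579 to 1073 in P and 455 to 1082 in V, and its difference for E+P against V was 0.13 (interval -0.31 to 0.58). Col6a2 and Col6a3 differed by 0.10 (interval -0.39 to 0.59) and 0.03 (interval -0.48 to 0.54). Col14a1, which coats fibrils and regulates their growth, was read by 3 tested probe sets with differences of 0.46, 0.52 and 0.63 for E+P against V, and none passed. Its probe set on array C read 699 to 1125 in E+P against 321 to 525.7 in E without overlap (1.03 ± 0.31, adjusted p = 0.244).

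Estrogen alone gave 0 calls among the 62 tested member probe sets against V, where 0.182 percent of all tested probe sets passed. At an unadjusted p under 0.05 it had 4 higher and 1 lower, where 6.02 percent of all were higher and 6.11 percent lower. Progesterone alone gave 0 calls, where 0 percent of all passed, and at the unadjusted level 1 higher and 2 lower, where 4.13 percent of all were higher and 3.93 percent lower. The comparison of E+P with E gave 0 calls, where 0.143 percent of all passed. At the unadjusted level it had 11 higher and 1 lower, where 5.6 percent of all were higher and 4.32 percent lower. The interaction, which asks whether the effects of the hormones add on the log2 scale, gave 0 calls, where 0.0737 percent of all passed, and at the unadjusted level 7 positive and 1 negative, where 6.17 percent of all were positive and 5.49 percent negative. Its values were 1.02 ± 0.35 for Col7a1 (adjusted p = 0.260), 1.17 ± 0.40 for Col17a1 (adjusted p = 0.260) and 0.87 ± 0.33 for Col16a1 (adjusted p = 0.304). Other members had larger values, up to 2.25 for Col4a4 and 2.16 for Lama1, which are dim, with 5 and 2 animals at the floor. The lowest adjusted p of any member for the interaction was 0.226, for Lama1. Lama1 exceeded its array's median in only 4 animals, E+P 1, E+P 2, E+P 3 and V 1. It was thus tested mainly through E+P, where it is high, and no conclusion is drawn from this p. The comparisons against V share the V animals and those of E+P share the E+P animals, so their values for a gene are not independent of one another. Of 9 tested lymphocyte markers, 8 were higher in E than in V at the unadjusted level. In E+P against E 8 were lower, in the interaction 8 were negative, and 0 passed the threshold in these comparisons. The Gapdh ratio also differed between E and V without overlap. The part of lymphocytes or RNA quality in the members' differences was not tested.

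Between intact glands and epithelium-free fat pads, all given both hormones, Col7a1, Col8a1, Col9a3, Col13a1, Col14a1, Col16a1, Col17a1, Lama5 and Lamb3 were higher in the gland and Col5a3 was lower. Of the 62 tested member probe sets 10 were higher and 1 lower in E+P than in E+P CFP, where 7.9 percent of all tested probe sets passed in either direction (5.24 percent higher and 2.66 percent lower). By class, the calls were 0 higher and 1 lower of 16 fibrillar, 2 higher and 0 lower of 24 basement membrane and 8 higher and 0 lower of 22 other probe sets. The median difference was 0.30, 0.01 and 0.51 in the 3 classes, against 0.02 over all tested probe sets.

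Lamb3, of the epithelial laminin, was at the floor in all 3 fat pads and at least 7.95-fold higher in E+P (adjusted p = 0.00132), and its signals of 64.2 to 166 in E+P stood well clear of the 6.70 to 10.9 of E+P CFP. Col17a1 read 80.0 to 133 in E+P against 22.7, 38.3 and 41.5 in E+P CFP, a rise of 1.77 ± 0.30 (adjusted p = 0.000509). Col7a1 rose by 2.35 ± 0.26 (adjusted p = 2.74e-06). Lama5 read 178, 245, 199.9, 227 and 324 in E+P against 110.3, 86.0 and 91.9 in E+P CFP, a rise of 1.27 ± 0.26 (adjusted p = 0.00304). A second Lama5 probe set, whose probes may bind related transcripts, read 45.0 to 68.5 in E+P against 33.4 to 43.5 in E+P CFP and did not pass (0.63 ± 0.26, adjusted p = 0.156). Lama3, untested, read 51.4 to 85.5 in E+P against 9.40 to 16.3 in E+P CFP, again without overlap. With no filter on dim probe sets, Lama3 and Col4a5 were tested and called higher in E+P, where 4.57 percent of all probe sets passed.

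The other rises were in the class of other collagens. Col16a1 rose by 2.03 ± 0.24 (adjusted p = 5.07e-06) and Col9a3 by 1.87 ± 0.21 (adjusted p = 4.19e-06), with Col9a3 at 57.3, 48.9 and 24.9 in the fat pads. Col14a1 rose by at least 2.33 on its B-array probe set (adjusted p = 9.96e-05), at 204 to 339 in E+P against 45.5, 28.2 and 113 in E+P CFP, where 1 fat pad was at the floor. Its A-array probe set rose by 1.37 ± 0.40 (adjusted p = 0.0359), and its C-array probe set differed by 1.04 ± 0.34 without passing (adjusted p = 0.0603). Col8a1, a short-chain collagen of vessel walls and other tissues, rose by 1.17 ± 0.27 (adjusted p = 0.00737), at 70.8 to 144 in E+P against 38.1 to 51.5 in E+P CFP. Col13a1, a membrane-spanning collagen, rose by at least 1.44 (adjusted p = 0.0182), with 1 fat pad at the floor. Its probes may also bind related transcripts, and it exceeded the median of its array in only 6 animals.

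Col5a3 was the only member called lower in the intact gland. It read 540.0, 531, 462, 409 and 682 in E+P against 877, 941 and 1002 in E+P CFP, which did not overlap, and it fell by 0.86 ± 0.26 (adjusted p = 0.0474). Col15a1 and Col4a1 also averaged lower in E+P without passing. Col15a1 read 422 to 497 in E+P against 635 to 733 in E+P CFP (-0.54 ± 0.17, adjusted p = 0.0580), and Col4a1 read 1044 to 1286 in E+P against 1267 to 1999 in E+P CFP (-0.49 ± 0.18, adjusted p = 0.105). Col1a1, Col3a1, Col6a1, Lama2, Lama4, Lamb1 and Lamc1 had intervals that included zero.

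Leaving out animals moved some of these calls. The rises of Col7a1, Col16a1, Col17a1, Col9a3, Col8a1, Lama5, Lamb3 and of Col14a1 on array B were kept without each of the 20 animals in turn and without V 4, E 1 and E+P CFP 1 together. Col13a1 was lost without E+P CFP 1 or E+P CFP 2 (adjusted p = 0.152 and 0.0742), and Col14a1 on array A without E+P 3, E+P 4, E+P 5, E+P CFP 1 or E+P CFP 3 (adjusted p = 0.0604 to 0.210). The fall of Col5a3 was lost without E 1, E 3, E 4, P 2, E+P 1, E+P 2, E+P 3, E+P 4 or any 1 of the fat pads (adjusted p = 0.0514 to 0.132). Without V 4, E 1 and E+P CFP 1 together, 8 calls remained and those of Col13a1, Col14a1 on array A and Col5a3 were lost (adjusted p = 0.173, 0.133 and 0.107). Scaling each array to a common median moved the median of all tested probe sets to -0.11 in this comparison. Under that scaling all rises but that of Col14a1 on array A stood. Col5a3 stayed lower, and Col15a1 and Col4a1 were called lower as well (adjusted p = 0.0113 and 0.0250). With quantile normalization 8 members were called higher and 0 lower. Col5a3, Col13a1 and Col14a1 on array A were lost under it (adjusted p = 0.113, 0.0515 and 0.0886). The fall of Col5a3 was also lost with no filter (adjusted p = 0.124), without the intensity trend (0.0869) and with adjustment within array type (0.0501). Under that adjustment Col15a1 was called lower (adjusted p = 0.0330).

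Markers of other cell types moved with this comparison. All 10 luminal markers were higher in E+P than in E+P CFP, the skeletal muscle score was -0.96 to 0.15 in E+P against 2.34 to 3.05 in E+P CFP, and the adipocyte score was -0.52 to 0.03 in E+P against 0.26 to 0.46 in E+P CFP. The endothelial score was -0.38 to 0.06 in E+P against 0.08 to 0.36 in E+P CFP without overlap, and 4 of 8 endothelial markers were lower at an unadjusted p under 0.05, of which 1 passed the threshold. Of all 23055 tested probe sets, 1856 were lower at the unadjusted level, and 5.24 percent passed as higher and 2.66 percent as lower. The fibroblast score, over markers without collagens, overlapped at -0.32 to 0.35 in E+P and -0.18 to 0.11 in E+P CFP. The part of any cell type in the members' differences was not tested.

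The fat pads given both hormones were also set against vehicle glands, where tissue and treatment differ together and cannot be told apart. Of 62 tested member probe sets 2 were higher and 5 lower in E+P CFP, where 3.09 percent of all tested probe sets passed (0.685 percent higher and 2.41 percent lower). Those lower were Col7a1 (-1.26 ± 0.27, adjusted p = 0.00942), Col9a3 (-1.22 ± 0.22, adjusted p = 0.00216), Col8a1 (-1.22 ± 0.28, adjusted p = 0.0148), Lama5 (-1.10 ± 0.27, adjusted p = 0.0233) and Col14a1 on array B (-1.87 ± 0.37, adjusted p = 0.00344). Col14a1 read 45.5, 28.2 and 113 in E+P CFP against 164, 311, 242 and 111 in V and its groups overlapped. Col16a1 and Col17a1 were below every V gland in all 3 fat pads without passing (-0.84 ± 0.26, adjusted p = 0.0815, and -1.08 ± 0.31, adjusted p = 0.0686).

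Col18a1 was the only gene with calls higher in E+P CFP than in V. Its probe set c read 103, 196 and 179.7 in E+P CFP against 17.4, 88.0, 46.4 and 29.2 in V (2.02 ± 0.50, adjusted p = 0.0274). Its probe set d read 82.2, 102 and 120.4 in E+P CFP against 56.6, 61.3, 46.6 and 21.6 in V (1.21 ± 0.31, adjusted p = 0.0352). Both calls were lost without V 4, E 1 and E+P CFP 1 together (adjusted p = 0.0873 and 0.110) and without V 4, E+P CFP 2 or E+P CFP 3 alone, and the first was also lost without V 1 and the second without V 3 or E+P CFP 1. Probe set a differed by -0.06 in the same comparison. Of the lower calls, Lama5 was lost without V 3, V 4, E+P CFP 2 or E+P CFP 3 (adjusted p = 0.0694 to 0.0995), Col8a1 without V 1 or E+P CFP 2 (adjusted p = 0.0603 and 0.0846) and Col7a1 without E+P CFP 2 (adjusted p = 0.0846). Without V 4, E 1 and E+P CFP 1 together Lama5 and Col8a1 were lost too (adjusted p = 0.135 and 0.0508). When only the E+P CFP and V animals were fitted, Lama5 was the one call kept, and Col7a1, Col8a1, Col9a3 and Col14a1 were lost (adjusted p = 0.0591, 0.0527, 0.115 and 0.0878), as were both calls of Col18a1 (adjusted p = 0.103 and 0.200). With no filter on dim probe sets Lama5 and both calls of Col18a1 were lost (adjusted p = 0.0647, 0.0827 and 0.0689), and with median scaling Lama5 was lost (adjusted p = 0.0511). Lama3 was called lower in E+P CFP with no filter, where 1.73 percent of all probe sets passed. The number of calls without single animals was 2 to 8, with 2 without E+P CFP 2 and 4 without either E+P CFP 3 or V 4.

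Within groups, the chains of collagens I, III and V varied from animal to animal, and the pairs tested varied together. The other tested fibrillar genes, Col5a3, Col11a2 and Col27a1, were not among the pairs. Col1a1 was high in E+P 3, E+P 5, P 1 and V 3, at 4577, 4797, 4486 and 4158, while the other animals of P read 1470.4 to 1954. Over the 20 animals, the deviations of Col1a1 from its group means correlated with those of Col1a2 (r = 0.895, rho = 0.841) and Col3a1 (r = 0.876, rho = 0.898), and those of Col5a1 with Col5a2 (r = 0.844, rho = 0.823). The chains of collagen VI gave r = 0.741 (Col6a1 and Col6a2), 0.696 (Col6a1 and Col6a3) and 0.787 (Col6a2 and Col6a3), with rho = 0.725, 0.719 and 0.887. These 6 pairs had Benjamini-Hochberg adjusted two-sided permutation p-values of 4e-05 to 0.00119 for r, from 100000 permutations within groups over 8 pairs; the smallest p that these can give is 1e-05. Without the 2 animals farthest from the median, r was 0.852 and 0.867 for the collagen I and III pairs, 0.81 for collagen V and 0.69 to 0.72 for collagen VI.

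Col4a1 and Col4a2, which lie head to head and share a promoter region, gave a lower value of 0.484 (rho = 0.499, adjusted p = 0.0715 and 0.0557), and 0.488 without the 2 farthest animals. Col7a1 and Col16a1 gave 0.529 (rho = 0.465, adjusted p = 0.0373 and 0.0705), and 0.582 without the 2 farthest. Only r of the last pair passed 0.05 of the values for these 2 pairs. The genes of the other pairs were read on array A of each animal and share its hybridisation and scaling, whereas Col7a1 was read on array A and Col16a1 on array B of the same animal. The 8 pairs were chosen after values had been seen.

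**Figure D4:**
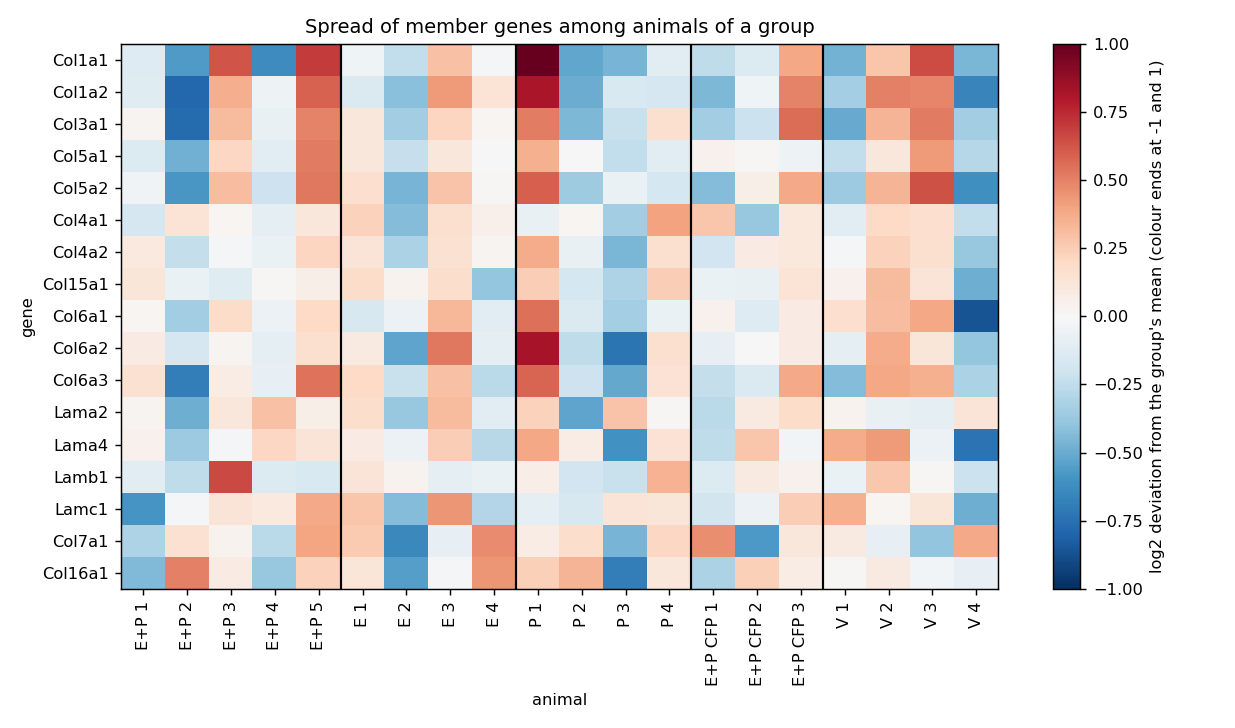
Log2 deviation of 17 member genes (rows) from the mean of the animal's own group, for the 20 animals (columns, E+P, E, P, E+P CFP and V from left to right, separated by lines); red is above and blue below the group mean, and colour ends at -1 and 1. Col1a1, Col1a2, Col3a1, Col5a1 and Col5a2 at the top are red together in P 1, E+P 5 and V 3 and blue together in E+P 2, while Col7a1 and Col16a1 at the bottom are both blue in E 2 and red in E 4.

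The proteins that build, link and bind collagens were described with 5 lists. Collagen synthesis and processing (prolyl and lysyl hydroxylases, the chaperone Serpinh1 and propeptide proteases, 19 tested of 24 genes), cross-linking by lysyl oxidases (2 of 5) and fibril-associated proteins such as decorin (11 of 12) gave 0 calls in each of the 8 comparisons, where 0 to 7.9 percent of all tested probe sets passed. For E+P against V at an unadjusted p under 0.05, the synthesis list had 1 gene higher and 1 lower with a median difference of 0.24, the cross-linking list 0 and 0 with a median of -0.27, and the fibril-associated list 3 and 0 with a median of 0.27; over all tested probe sets 6.03 percent were higher and 4.64 percent lower.

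The lists of partners and receptors had calls in the comparisons of E+P with E+P CFP and of E+P CFP with V, where 7.9 and 3.09 percent of all tested probe sets passed. They had 0 in the other comparisons, where 0 to 0.464 percent of all passed, and no difference between comparisons was tested. Of the basement membrane partners (8 tested of 10), Agrn and Fbln1 rose by 1.65 ± 0.18 (adjusted p = 2.00e-06) and 0.73 ± 0.20 (adjusted p = 0.0264) in E+P against E+P CFP, and 0 fell. Agrn encodes agrin, a basement membrane proteoglycan, and Fbln1 encodes fibulin-1, which binds laminin. Of the receptors (14 tested of 15), Itgb4, the hemidesmosome integrin chain that holds laminin-332, rose by 1.58 ± 0.25 (adjusted p = 0.000212), and Ddr1, the collagen-sensing kinase of epithelial cells, rose by 1.36 ± 0.18 (adjusted p = 3.89e-05), while 0 fell. Against V, the fat pads were lower in the same 4 genes, with differences of -0.98 for Agrn (adjusted p = 0.00299), -0.91 for Fbln1 (adjusted p = 0.0158), -1.23 for Itgb4 (adjusted p = 0.00733) and -1.03 for Ddr1 (adjusted p = 0.00242).

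The 13 member genes without a tested probe set were Col2a1 and Col11a1 among the fibrillar collagens, Col4a3, Col4a5, Col4a6 and Lama3 in the basement membrane class, and Col8a2, Col10a1, Col12a1, Col19a1, Col22a1, Col23a1 and Col25a1 among the others. Col2a1 and Col11a1 are cartilage collagens and Col4a3 belongs to the collagen IV of kidney and lung. Col22a1 did not exceed 7.70 in any animal, below the floor of 13.5, and Col10a1, the collagen of growth plate cartilage, did not exceed 35.3. None of the 13 exceeded a signal of 92.8 in any animal. Signals this low do not show whether a gene is expressed.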

How the data were processed

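Total RNA of 20 animals was hybridised to Affymetrix MG-U74 arrays A, B and C (60 arrays). The authors deposited 1 linear signal intensity per probe set and array. MAS5 made it, per the submitters' processing notes, and its version is not given in the sources used here. Groups follow titles and treatment protocols, although the vehicle samples' description names progesterone. Gene symbols come from GEO's platform annotation, and all 91 member symbols matched the RefSeq gene table.

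Arrays sharing a group and replicate number were taken as 1 animal. Each array was scaled to the common 2% trimmed mean of its type, floored at the type's 25th percentile (13.5, 28.5 and 19.8) and turned to log2. Probe sets above the 50th percentile (61.6, 85.7 and 62.1) in at least 3 animals were tested, 7224, 7719 and 8112 on A, B and C. As deposited, the trimmed means lay between 150.03 and 150.1 and the medians between 48.4 and 88.3. The arrays carry no counts, so the number of animals limits the precision. limma 3.58.1 in R 4.3.3 fitted 5 group means per array type with an intensity trend, two-sided, with 8 comparisons; the fit was tested on simulated data. Nothing says that samples came from separate RNA preparations or runs, so p-values measure the spread between these samples. With floored animals on the dimmer side, a difference is a lower bound.

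Genes named are every called member probe set, a fixed set (Col1a1, Col1a2, Col3a1, Col5a1, Col5a2, Col4a1, Col4a2, Col15a1, Col18a1, Col6a1, Col6a2, Col6a3, Col14a1, Lama2, Lama4, Lama5, Lamb1, Lamb2, Lamb3 and Lamc1; 1 more gene is not reported here), and up to 4 called genes of each pathway list; other members appear by counts and ranges, and others named with values (Col9a1, Col9a2, Lama3 and the interaction values) were chosen after these were seen. A gene's values come from 1 probe set (array A before B before C, then no letter suffix, then the highest mean) unless said. The members and lists were chosen with earlier results of these data known. Correlations used Python 3.11.15, numpy 2.4.6, pandas 2.3.3 and scipy 1.17.1. Alternatives changed the scaling, floor, filter, variance model, samples in the fit, replicate block and adjustment, and left out each animal.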

Additional observations from a re-analysis of the deposited data

Results flagged for a closer look

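In groups of 4 or 5 animals, a highest or lowest value was picked out when its gap to the nearest other, divided by the group's range, passed Dixon's 95% critical value. Of 140 groups examined (35 genes or class scores in 4 groups), 7 were picked out, or 5.0 percent, and chance alone picks out about 1 in 20.

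Lamb1 in E+P 3 was at 8.01 log2 units while the other E+P animals lay between 7.10 and 7.24. Lamb2 was lowest in P 3, at 6.28 against 7.01 to 7.13 in the other P animals, and highest in V 1, at 7.27 against 7.03 to 7.04 in the other V animals. Lamb3 in E 4 was at 6.33, while the other E animals lay between 4.36 and 4.58. Col13a1 in E 2 was at 5.11 against 6.03 to 6.06 in the other E animals. Col17a1 in P 3 was at 5.41 against 6.08 to 6.10 in the other P animals. The score of the other collagens was -0.26 in E 2 and 0.02 to 0.07 in the other E animals.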

How the results depend on the processing

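Under all 13 other settings and without each of the 20 animals, the counts of called member probe sets stayed at 0 for E against V, for P against V, for the interaction and for E+P against E. For E+P against V the count of 2 became 0 with no filter and 1 with median scaling or without the intensity trend, and it was 0 to 2 without single animals. For E+P against P the count of 2 became 0 with no filter and 1 without the intensity trend or with only the compared groups fitted, and it was 0 to 2 without single animals. For E+P against E+P CFP the count of 11 became 6 with the filter at the 75th percentile, which tests 38 members only, and it was 8 to 13 without single animals. For E+P CFP against V the count of 7 became 3 with that filter, 1 with only the compared groups fitted and 3 without V 4, E 1 and E+P CFP 1 together, and it was 2 to 8 without single animals. Over all tested probe sets, the lowest and highest counts of calls were 33 and 155 for E+P against V (107 as reported), 19 and 131 for E+P against P (83), 2 and 50 for E+P against E (33), 11 and 143 for E against V (42), 0 and 4 for P against V (0), 10 and 48 for the interaction (17), 1073 and 2039 for E+P against E+P CFP (1821), and 369 and 795 for E+P CFP against V (713). Where no cause is named, the cause was not tested. Of 7848 values for single probe sets under the alternatives, 7733 kept their side of the threshold, 102 lost a call, 13 gained one and 0 reversed. Most of the 7848 belong to differences that were not called as reported, so they had no call to lose. The calls of Col7a1 in E+P against V and of Col5a3 in E+P against E+P CFP were each lost under 17 of 33 alternatives. That of Col7a1 in E+P against E+P CFP was lost under 0 of 33.

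Replicate numbers did not pair the samples: deviations of the 36 pairs of animals with the same number correlated at -0.102 to 0.0983, and those with different numbers at -0.11 to 0.165. With the replicate block, the count was 0 for E+P against V and for E+P against P, 8 for E+P against E+P CFP and 5 for E+P CFP against V, and 0 in the other comparisons. Under it the adjusted p-values were 0.101 (Col7a1) and 0.0713 (Col16a1) for E+P against V, and 0.0598 (Col7a1) and 0.0898 (Col16a1) for E+P against P. Dim members are measured less well than bright ones, and groups of 3 to 5 animals limit what could be called.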
